A study of Saccharomyces cerevisiae with 10 samples.

Results

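The comparison set the 4 arrays of yeast cells growing in 1 M KCl (Samples B and C) against the 6 arrays of the same strain growing without KCl (Samples A, D and E). These are all 10 arrays of the series, and the samples were assigned by medium alone, so no expression value chose them. Haploid *Saccharomyces cerevisiae* cells, labelled as strain BQS1350, were profiled with Affymetrix Yeast Genome 2.0 arrays. The study's methods do not use that name. They describe a BY4742 derivative (MATα his3 leu2 lys2 ura3) whose GCN5 gene carries a MYC13 tag with KanMX6. Label and description were taken to mean the same strain. On that reading every group carried the tagged GCN5. All cultures were grown in rich glucose medium (YPD), with or without the salt.

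Each sampling point had 2 arrays, from cultures grown as separate batches. The KCl arrays were Sample B, taken during stress adaptation 1 h after the salt was added, and Sample C, taken after stress adaptation once growth in salt had brought the cultures back to a higher cell density. The arrays without KCl were Sample A, normal growth before the salt, Sample D, during stress recovery 1 h after the salt was removed, and Sample E, after stress recovery some generations later. Samples B and D were taken soon after a transfer at low cell density, so 1 of the 2 KCl points and 1 of the 3 points without KCl were of this kind. The points also followed each other in time in 1 regime, and no array came from a culture transferred without a change of salt, so salt, order and the preceding transfer cannot be fully told apart.

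High external salt draws water out of a yeast cell. The cell answers by activating the Hog1 kinase through the high osmolarity glycerol (HOG) pathway, by keeping and making glycerol as its main compatible solute, and by turning on a broad set of stress genes through Hog1-dependent factors and the general stress factors Msn2 and Msn4. Genes for ribosome production are commonly turned down for a time in the same response, and most of these changes are known to be strongest soon after the shock and to fade as cells adapt. The contrast reported here asks which genes stayed apart when the early and the adapted KCl points were pooled and set against every point without salt.

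Between 5229 and 5365 of the 5449 *S. cerevisiae* genes lay above background on each array, where background was the 95th percentile of the probe sets for other species. The array medians over all genes ranged from 9.60 to 10.19 on the KCl arrays and from 9.59 to 10.08 on the arrays without KCl (log2 RMA values, as are all levels below). Replicates differed by a root mean square of 1.04 over all genes in Sample B and of 0.42 in Sample C, against 0.48 in Sample A, 0.32 in Sample D and 0.45 in Sample E. On the ACT1 control probe sets, the 3′ minus 5′ value was 0.56 on Sample B replicate 2 and 0.18 on Sample B replicate 1, with 0.25 to 0.37 on the arrays without KCl. The control probe set for the 3′ end of the 18S rRNA read 10.09 and 10.31 in Sample B and 11.21 and 11.90 in Sample C, against 11.37 to 12.66 without KCl. The part of these RNA differences in the results was not tested. Of the auxotrophic marker genes, LEU2 (5.18 to 5.99), LYS2 (4.42 to 5.07) and URA3 (3.62 to 4.23) stayed near or below background on every array, while the HIS3 probe set read 10.21 to 11.58. The α-cell receptor gene STE3 read 11.76 to 12.74 and the α-factor gene MF(ALPHA)1 read at least 13.20, whereas the a-cell receptor gene STE2 did not exceed 6.86.

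More genes were higher in KCl than lower. With limma, 135 of 5449 genes (2.48%) passed an adjusted p under 0.05 between the KCl arrays and the others, 113 higher (2.07%) and 22 lower (0.404%), while 934 had an unadjusted p under 0.05. With the replicate number as a block the test passed 402 genes (7.38%), 294 higher (5.40%) and 108 lower (1.98%), and all 135 were among them. All 135 had the same direction within replicate 1 and within replicate 2, and in all 135 the means of Sample B and of Sample C both lay on the same side of the mean without KCl. The call itself favours such agreement, so it is no separate evidence. Of all 5449 genes, 1923 had both means above the mean without KCl and 1747 had both below it. The rises were larger than the falls, with median log2 differences of 1.86 among the 113 and a median size of 1.13 among the 22. The split between rises and falls depended on scaling: the higher genes made up 83.7% of those called, against 73.1% after centring each array on its median (271 called) and 58.8% after quantile normalization (335 called).

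The count of called genes moved strongly when single arrays were left out. A sampling point left with 1 array adds nothing to the estimated spread, and Sample B varied most between replicates. These counts therefore do not isolate the pull of the array left out. Leaving out Sample C replicate 1 left 14 genes and leaving out Sample B replicate 1 gave 1372, while leaving out Sample B replicate 2 gave 466 genes, of which 239 were lower. Without both Sample A arrays no gene passed, although 663 had an unadjusted p under 0.05 and 148 passed with the replicate block. Without the Sample B arrays 83 genes passed, 67 of them among the 135, and with the block 107 of the 135 passed. Of the 77 called genes named here, 10 were still called without Sample C replicate 1, and between 32 and 54 with 1 array of Sample A, D or E or Sample C replicate 2 left out.

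**Figure D1:**
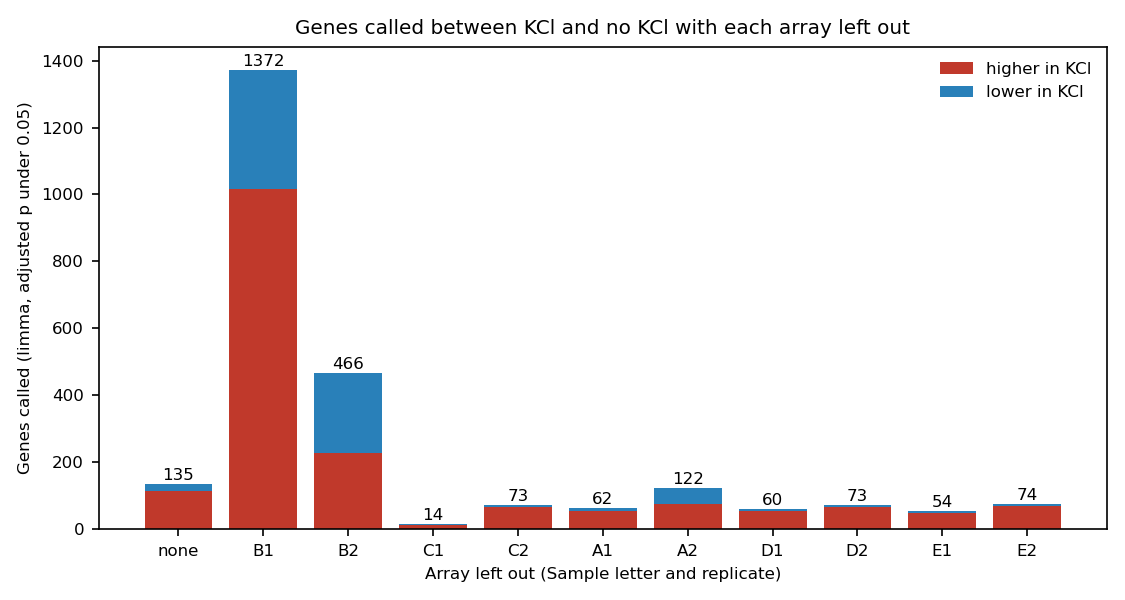
Number of genes called by limma between KCl and no KCl (adjusted p under 0.05) with all 10 arrays (none) and with each array left out in turn, split into higher and lower in KCl. A sampling point left with a single array adds nothing to the estimated spread. The counts run from 14 without Sample C replicate 1 to 1372 without Sample B replicate 1, around 135 with every array.

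The largest rise was in STL1 (YDR536W), the glycerol/proton symporter of the plasma membrane. Its level was 11.21 and 13.94 in Sample B and 10.71 and 11.41 in Sample C, against 5.02, 6.47 and 8.34 (lowest, median, highest) on the 6 arrays without KCl. The groups did not overlap, the 2 highest arrays without KCl were those of Sample D, and 5 of the 6 arrays without KCl were above background. STL1 was 37.7-fold higher in KCl (log2 difference 5.24 ± 0.53, SE, limma adjusted p = 0.00731).

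The hydrophilin genes SIP18 and GRE1, small hydrophilic proteins linked to tolerance of water loss, followed. SIP18 read 9.78 and 11.94 in Sample B and 8.84 and 8.69 in Sample C, against 4.84, 5.14 and 6.66 without KCl (log2 difference 4.34 ± 0.49, adjusted p = 0.00731). Only 2 of the 6 arrays without KCl were above background for SIP18, so its difference is set partly against background. GRE1 read 9.97 and 12.98 in Sample B and 9.67 and 9.63 in Sample C, against 6.19, 6.35 and 7.18 without KCl (4.01 ± 0.51, adjusted p = 0.00803). In both genes the Sample C arrays lay close together and above every array without salt, and Sample B replicate 2 was the highest of all. NQM1, a transaldolase of the non-oxidative pentose phosphate pathway, read 11.57 and 13.99 in Sample B and 10.91 and 10.81 in Sample C, against 6.89, 7.46 and 8.67 without KCl (4.24 ± 0.43, adjusted p = 0.00731).

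Among these leading genes the small heat shock protein gene HSP12, which acts on membranes, was evenly high in salt, at 14.45, 14.60, 14.28 and 13.93 on the 4 KCl arrays. Without KCl it spread over 7.38, 11.02 and 12.78, because Sample A read 7.38 and 8.09 while Samples D and E read 10.25 to 12.78. The difference was 3.85 ± 0.42 (adjusted p = 0.00731), and the KCl contrast took 60.4% of its variation between the 5 sampling points. RTC3 had a like shape, with 12.16, 14.42, 12.51 and 13.01 in KCl against 7.58, 9.03 and 11.43 without (3.81 ± 0.50, adjusted p = 0.00834).

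The other leading rises concerned aldehyde oxidation, hexose uptake and the cell surface. ALD3, a cytosolic aldehyde dehydrogenase, rose by 4.12 ± 0.61 (adjusted p = 0.0100) and HXT5, a hexose transporter associated with slow growth, by 4.08 ± 0.50 (adjusted p = 0.00803). FMP45 and YNL194C encode SUR7-family proteins of the plasma membrane, and they rose by 3.46 ± 0.49 and 3.57 ± 0.46 (adjusted p = 0.00864 and 0.00803). YNL194C was the 1 gene of the 12 largest rises whose groups overlapped: Sample C replicate 2 read 7.95, below the 8.77 and 8.74 of Sample D. PHM7, a membrane protein, rose by 3.44 ± 0.54 (adjusted p = 0.0130) and HSP26, a small heat shock protein, by 3.41 ± 0.42 (adjusted p = 0.00803). All 12 stayed past the threshold without the Sample B arrays, whereas 5 did without Sample C replicate 1.

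**Figure D2:**
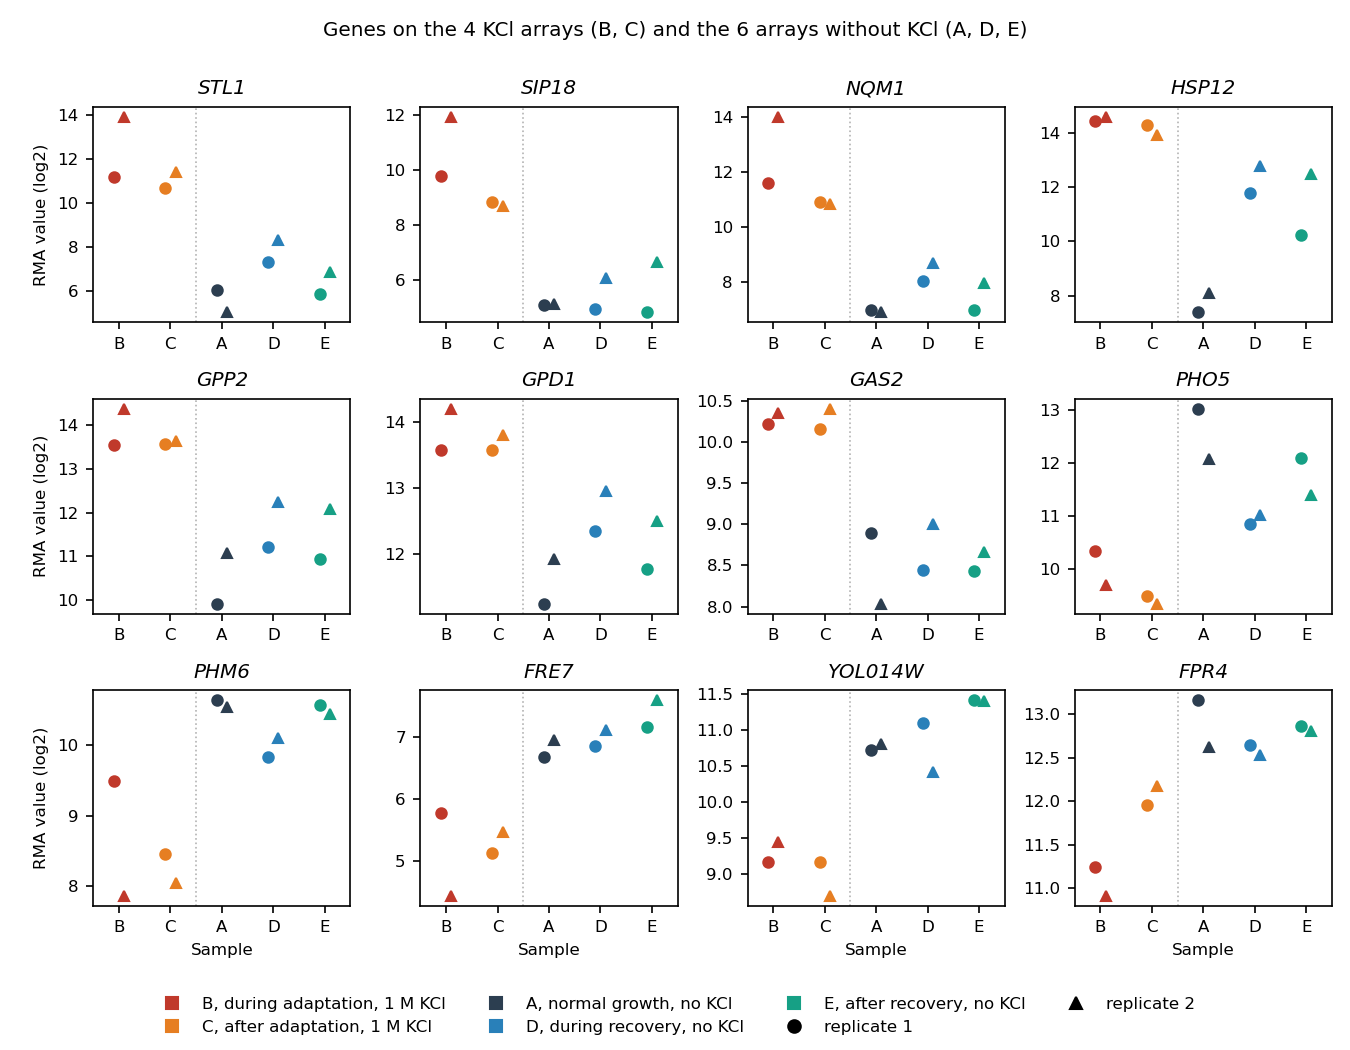
RMA values (log2, a separate scale per gene) of 12 genes in Samples B and C (1 M KCl) and Samples A, D and E (no KCl), 1 point per array, circles for replicate 1 and triangles for replicate 2. The genes were chosen by hand, and not all are among the largest rises and falls. In each of them the 4 KCl arrays lie on 1 side of all 6 others, whereas 37 of the 135 called genes overlapped. STL1 reads 10.71 or more in KCl and 8.34 or less without, and PHO5 10.33 or less in KCl and 10.85 or more without.

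The largest falls were led by phosphate genes. PHO5, the repressible secreted acid phosphatase, read 10.33 and 9.70 in Sample B and 9.50 and 9.34 in Sample C, against 10.85, 11.73 and 13.02 without KCl. The groups did not overlap, and Sample A replicate 1 was the highest array. PHO5 fell by 2.02 ± 0.25 on the log2 scale (adjusted p = 0.00803). PHM6, a gene induced when phosphate is short, fell by 1.90 ± 0.29 (adjusted p = 0.0123), and PHO11, a second secreted acid phosphatase, fell by 1.79 ± 0.36 (adjusted p = 0.0411). PHO11 shares nearly all of its sequence with PHO12, which was not measured as a gene of its own, so its value is uncertain.

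FRE7, a putative ferric reductase known to respond to copper shortage, read 5.78, 4.44, 5.13 and 5.47 in KCl against 6.69, 7.04 and 7.60 without, with 2 of the 10 arrays below background (fell by 1.86 ± 0.27, adjusted p = 0.00875). IMD2, inosine monophosphate dehydrogenase of GTP synthesis and a member of a family of near-identical genes, read 9.12, 8.55, 9.18 and 9.44 in KCl against 10.13, 10.29 and 11.66 without (fell by 1.41 ± 0.28, adjusted p = 0.0411). For IMD2 the 11.66 of Sample A replicate 1 stood apart from the other 5 arrays without KCl, which read 10.13 to 10.33.

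Among the other falls, FPR4, a nucleolar prolyl isomerase, read 11.24 and 10.91 in Sample B and 11.95 and 12.17 in Sample C, against 12.53, 12.73 and 13.16 without KCl (fell by 1.21 ± 0.17, adjusted p = 0.00864). EFM4, a methyltransferase of translation elongation factor 1A, fell by 1.26 ± 0.25 (adjusted p = 0.0408) and RNT1, the RNase III of ribosomal and small RNA processing, by 1.09 ± 0.20 (adjusted p = 0.0280). For these 3 genes the Sample B arrays lay below the Sample C arrays. Without the Sample B arrays the limma adjusted p was 0.127 for FPR4, 0.109 for EFM4 and 0.242 for RNT1. With the block as well it was 0.0315 for FPR4, 0.0127 for EFM4 and 0.0578 for RNT1. On the KCl arrays YMR317W was above background on 2 and YHR214C-E on 3. YOL014W, YMR317W, YDL241W and YHR214C-E, uncharacterised reading frames, fell by 1.85, 1.82, 1.24 and 1.17 (adjusted p = 0.00731, 0.0426, 0.0368 and 0.00864), and none of them overlapped between the groups.

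In the list of osmotic response genes, 24 of the 30 measured members rose and none fell (80.0% of the list, beside 2.48% of all genes). This list was drawn from what is known of salt-shocked yeast and chosen with results of these arrays known, so its direction is no independent evidence. Its median log2 difference was 2.46, against 0.03 over all genes, and all 30 members were higher in Sample B and in Sample C than without KCl. The median was 3.21 for Sample B and 1.73 for Sample C, each against the same 6 arrays. Members differed in how far the groups stood apart. DDR2, a gene induced by many stresses, read 11.50 to 13.79 in KCl and 7.20 to 11.53 without, so the groups overlapped. DAK1, dihydroxyacetone kinase, read 12.81 to 13.94 in KCl and 11.27 to 12.10 without, with no overlap. CTT1, the cytosolic catalase, rose by 2.85 ± 0.52 (adjusted p = 0.0298), MSC1 by 3.18 ± 0.48 (adjusted p = 0.0107), GRE2, methylglyoxal reductase, by 2.38 ± 0.36 (adjusted p = 0.0107) and TMA10, a ribosome-associated protein, by 2.64 ± 0.55 (adjusted p = 0.0457). Of the members that did not pass, GRE3 was 1.43 ± 0.43 higher (adjusted p = 0.131, 0.0109 with the block) and ALD2 1.07 ± 0.33 higher (adjusted p = 0.143, 0.0291 with the block).

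**Figure D3:**
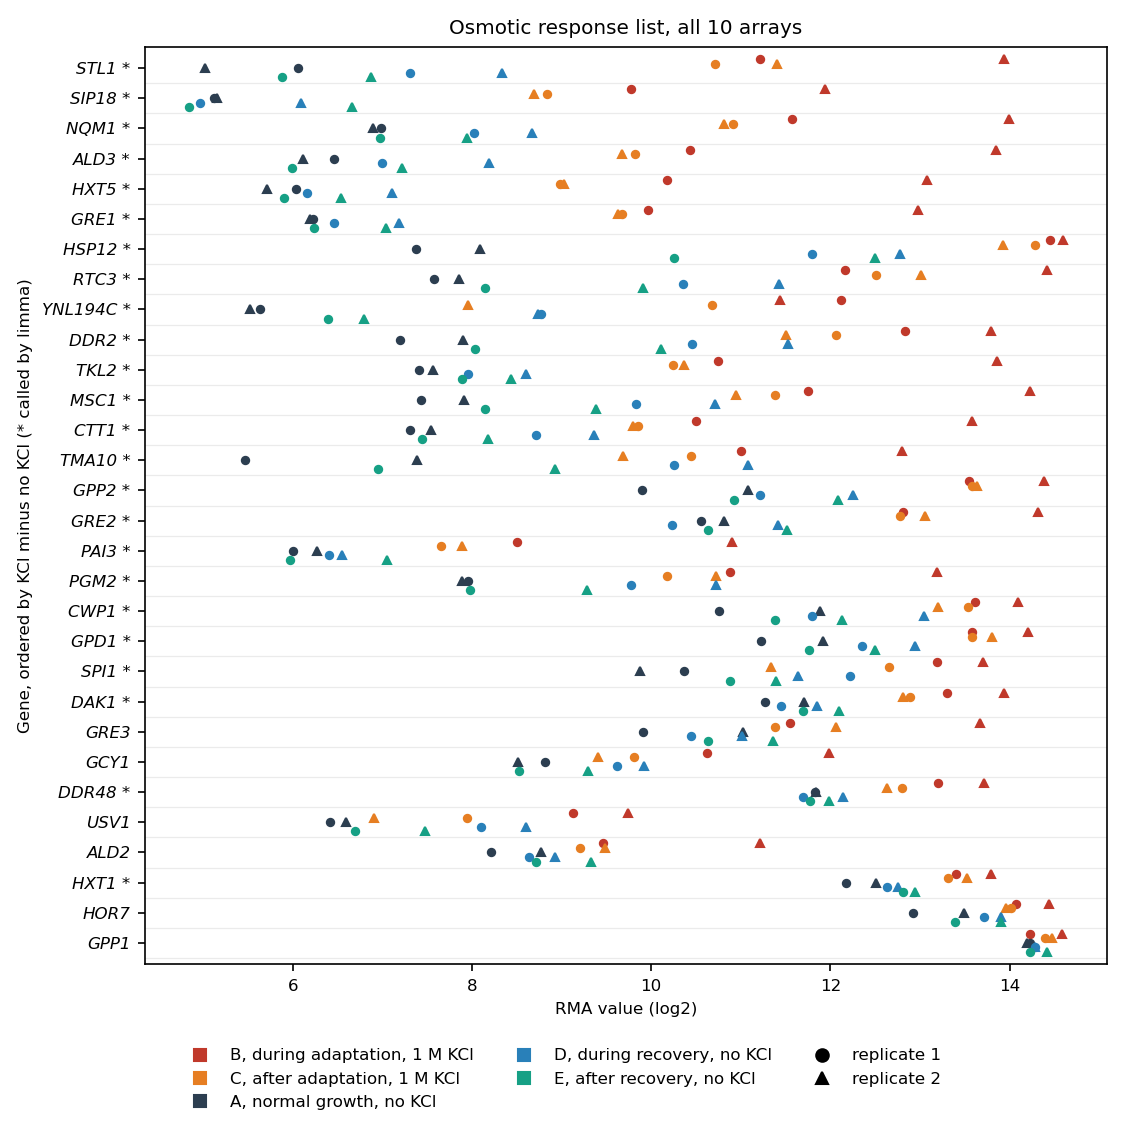
RMA values (log2) of the 30 measured osmotic response genes on every array, genes ordered by the difference between KCl and no KCl from the largest at the top, with an asterisk on the 24 called by limma. The points of Samples B and C lie to the right for most genes, and Sample D is often the nearest of the samples without KCl, as for TMA10 (10.44 and 9.69 in Sample C, against 10.26 and 11.08 in Sample D).

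Glycerol genes differed by isoenzyme. GPP2, the salt-inducible glycerol-3-phosphatase, read 13.55, 14.39, 13.58 and 13.64 in KCl against 9.90, 11.15 and 12.25 without (log2 difference 2.54 ± 0.35, 5.83-fold, adjusted p = 0.00864). GPD1, the salt-inducible glycerol-3-phosphate dehydrogenase, read 13.58, 14.21, 13.58 and 13.80 in KCl against 11.23, 12.14 and 12.95 without (1.67 ± 0.25, 3.19-fold, adjusted p = 0.00976). Neither gene overlapped between the groups, and Sample C minus Sample B came to -0.36 for GPP2 and -0.20 for GPD1. Their partners had other values. GPD2, the isoform tied to redox balance in the absence of oxygen, read 8.45, 8.66, 8.36 and 8.08 in KCl against 8.73, 9.14 and 9.51 without, and fell by 0.75 ± 0.15 (adjusted p = 0.0411), while GPP1 differed by 0.15 ± 0.15 (adjusted p = 0.671). GPP1 read 14.23, 14.59, 14.40 and 14.47 in KCl against 14.19 to 14.42 without, close to the 14.60 reached by HSP12. Whether its signal could rise further was not tested. Of the 16 glycerol genes, 4 rose (STL1, GPP2, GPD1, DAK1) and GPD2 fell, beside 2.07% higher and 0.404% lower of all genes, with a median difference of 0.61. With the block 7 rose and 1 fell, beside 5.40% and 1.98% of all genes. GUT2, the mitochondrial enzyme of glycerol breakdown, was 1.68 ± 0.45 higher (adjusted p = 0.0961, 0.00621 with the block).

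Paralogues, related genes that often encode alternative forms of 1 enzyme or subunit, were compared in 29 pairs. The pairs were put together after the called genes were known, from named genes with at least 1 called member, and are not a full list of such pairs. The values are a description, and the difference between the members was not tested. Some partners were already high without KCl: GPP1, TSA1 and RPS14A read at least 13.85 on every array. Whether such signals could rise further was not tested. The first gene of each pair, the called member with the larger difference or the only called member, rose in 24 pairs and fell in 5. Of the 29 partners 24 were not called, 4 rose and GPD2 fell, beside 2.07% higher and 0.404% lower of all genes. With the block 9 partners passed, beside 7.38% of all genes. In 16 pairs the ratio of the members on each of the 4 KCl arrays lay on 1 side of its value on all 6 others. The share over other gene pairs was not computed.

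Both members rose in 4 pairs: SIP18 and GRE1, SPS100 and YGP1, YNL194C and FMP45, and GSY2 and GSY1. In other pairs the first gene rose and the partner was higher without passing, among them ALD3 (4.12 ± 0.61) and ALD2 (1.07 ± 0.33), DDR2 (3.34 ± 0.43) and HOR7 (0.57 ± 0.19, adjusted p = 0.163), TMA10 (2.64 ± 0.55) and STF2 (0.80 ± 0.27, adjusted p = 0.166), and INH1 (1.59 ± 0.27) and STF1 (1.30 ± 0.54, adjusted p = 0.262, 0.0206 with the block). DAK1 (1.56 ± 0.20) stood beside DAK2 (-0.02 ± 0.19), and the wall protein gene CWP1 (1.77 ± 0.33) beside CWP2 (-0.08 ± 0.19). SED1, the partner of SPI1, was 0.44 ± 0.14 higher and DAL7, the partner of MLS1, 0.35 ± 0.33 higher (adjusted p = 0.148 and 0.660). Among the falls, PHO3, FPR3 and IMD3, the partners of PHO5, FPR4 and IMD2, had differences of -0.96, -0.39 and -0.29 (adjusted p = 0.273, 0.404 and 0.514).

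Several pairs belong to the pentose phosphate pathway. NQM1 (4.24) stood against TAL1 (0.00 ± 0.15, adjusted p = 0.995), TKL2, the minor transketolase (3.33 ± 0.51), against TKL1 (-0.23 ± 0.17, adjusted p = 0.554), GND2, the minor 6-phosphogluconate dehydrogenase (1.87 ± 0.39), against GND1 (-0.29 ± 0.17, adjusted p = 0.432), and SOL4, a 6-phosphogluconolactonase (2.87 ± 0.59), against SOL3 (-0.38 ± 0.16, adjusted p = 0.268). These 4 were the only members of the 13-gene pathway list that passed (30.8%, beside 2.07% higher of all genes), and the median of the list was 0.00.

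Outside that pathway, HXK1 (2.38 ± 0.46) is the hexokinase induced away from plentiful glucose and HXK2 (-0.15 ± 0.15) the one dominant on glucose. PGM2, the major phosphoglucomutase (2.31 ± 0.46), stood against PGM1 (-0.70 ± 0.15, adjusted p = 0.0501, 0.0206 with the block), TSA2, a stress-inducible peroxiredoxin (2.09 ± 0.30), against TSA1 (-0.04 ± 0.14), and GSC2, a glucan synthase subunit (1.73 ± 0.24), against FKS1 (-0.02 ± 0.21). COX5B, the cytochrome c oxidase subunit otherwise used at low oxygen (1.64 ± 0.29), stood against COX5A (-0.09 ± 0.18). AAC3, the ADP/ATP carrier of low oxygen, fell by 0.99 ± 0.21 (adjusted p = 0.0459), against a difference of 0.13 ± 0.15 for PET9, and RPS14B fell by 0.85 ± 0.17, against a difference of -0.07 ± 0.14 for RPS14A. DCS2, a regulator of mRNA decapping (2.35 ± 0.47), and DCS1 (1.42 ± 0.45, adjusted p = 0.150, 0.0342 with the block) differed in the same direction.

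**Figure D4:**
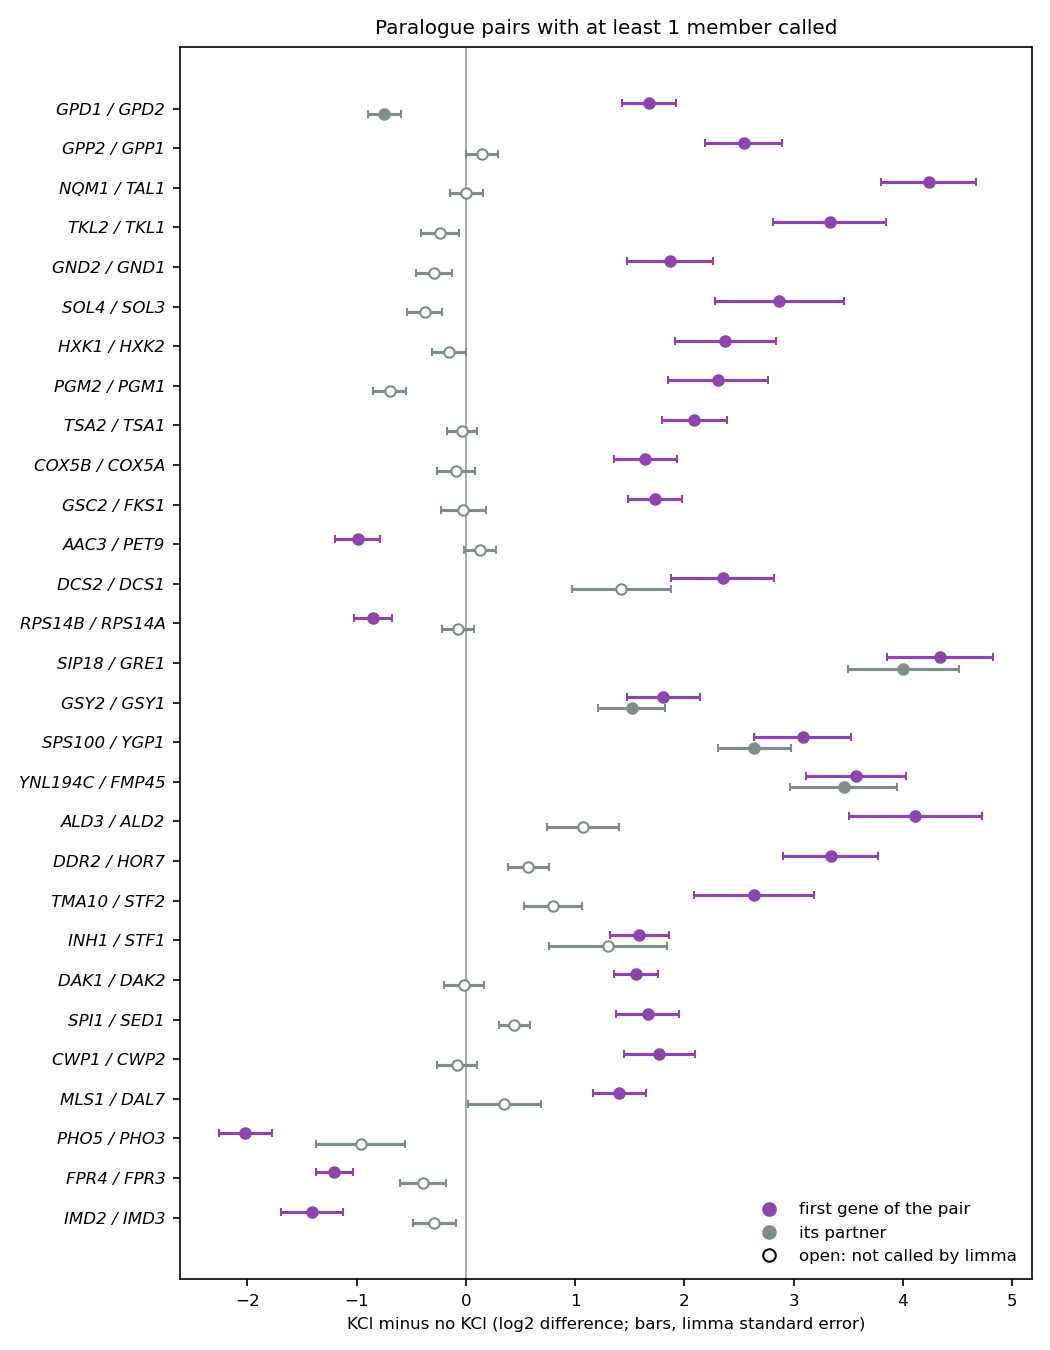
Log2 difference between KCl and no KCl (bars, limma SE) for both members of 29 paralogue pairs chosen because at least 1 member was called, filled symbols for genes called by limma. The partners lie between -0.96 (PHO3) and 4.01 (GRE1), and 5 of the 29 are filled, beside 2.48% called of all genes.

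Among storage carbohydrate genes, some for glycogen passed the test without the block and none for trehalose did. All 7 trehalose genes had higher means in Samples B and C than without KCl, with a median difference of 1.16. With the block 5 of them rose, beside 5.40% of all genes. TSL1, the regulatory subunit of trehalose synthase, read 11.45, 13.91, 10.71 and 11.76 in KCl, against 7.97, 10.21 and 11.86 without, so the groups overlapped (1.90 ± 0.60, adjusted p = 0.150, 0.00287 with the block). The highest arrays without KCl were those of Sample D replicate 2 and Sample E replicate 2. TPS2, trehalose-6-phosphate phosphatase, was 1.54 ± 0.43 higher (adjusted p = 0.102, 0.00911 with the block), and the trehalases NTH1 and ATH1 were 1.16 and 1.69 higher. Their adjusted p was 0.193 for NTH1 (0.0306 with the block) and 0.215 for ATH1 (0.0265 with the block).

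Of 16 glycogen genes, 4 rose (25.0%, beside 2.07% of all genes), and with the block 9 rose and 1 fell (beside 5.40% and 1.98% of all genes). GPH1, glycogen phosphorylase, read 10.93, 10.84, 10.12 and 9.36 in KCl against 6.14, 7.68 and 10.24 without (2.33 ± 0.31, adjusted p = 0.00864). PGM2 and the glycogen synthase genes GSY2 (1.81 ± 0.34, adjusted p = 0.0313) and GSY1 (1.52 ± 0.31, adjusted p = 0.0424) also rose. All 4 overlapped between the groups through Sample D: GSY1 read 9.42 and 8.88 in Sample C, against 10.78 on Sample D replicate 2. The KCl contrast took 25.8% of the variation of GSY1 between sampling points. GAC1, which targets protein phosphatase 1 to glycogen synthase, read 10.52 and 8.78 in replicate 1 of Samples B and C and 6.96 and 5.87 in replicate 2, against 5.56 to 7.47 without KCl, and did not pass with either test (adjusted p = 0.248, 0.104 with the block).

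None of 23 genes of the HOG cascade passed, with or without the block, a count near what the 2.48% of all genes called would give in so short a list, and their median difference was 0.16. RCK1, a kinase related to the Hog1 substrate Rck2, was 1.19 ± 0.38 higher (adjusted p = 0.153), and OPY2, a membrane anchor of the cascade, 0.54 ± 0.17 (adjusted p = 0.141). PTP3, a phosphatase acting on Hog1, was 0.51 ± 0.18 higher (adjusted p = 0.185). Among 19 transcription factors of the osmotic and stress response, XBP1, a stress-induced repressor, was the 1 gene that passed (5.26%, beside 2.48% of all genes). It had 3 of 6 arrays without KCl above background (9.20, 9.13, 8.03 and 6.65 in KCl against 4.95, 5.56 and 7.24 without, 2.51 ± 0.38, adjusted p = 0.0107). CIN5 and USV1, 1.17 and 1.12 higher, passed with the block only (adjusted p = 0.0419 for CIN5 and 0.0380 for USV1, against 0.0796 and 0.0683 without it), and MSN2 was 0.50 ± 0.22 higher (adjusted p = 0.298).

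Among 31 measured genes of potassium and sodium transport none passed, and 2 did with the block (beside 5.40% higher of all genes). HAL1, a salt tolerance gene, read 9.88, 9.16, 8.86 and 8.57 in KCl against 7.62, 7.96 and 9.06 without (1.02 ± 0.23, adjusted p = 0.0542, 0.0320 with the block). ENA5, a sodium pump of the plasma membrane, read 12.57, 13.59, 12.19 and 12.52 in KCl against 11.46, 11.80 and 11.92 without, with no overlap (0.97 ± 0.22, adjusted p = 0.0590, 0.0309 with the block). The ENA genes are near-identical tandem copies, and ENA1 and ENA2 were not measured separately, so this probe set cannot be assigned to 1 of them. PPZ2 and PTK2, a phosphatase and a kinase that act on ion transport, were 0.75 and 0.68 higher (limma adjusted p = 0.278 for PPZ2 and 0.452 for PTK2).

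At the cell surface, a few genes rose within lists that otherwise differed little. In the list of eisosomes, the plasma membrane furrows marked by SUR7-family proteins, FMP45 and YNL194C were the 2 of 15 genes that rose (13.3%, beside 2.07% of all genes), and LSP1 and EIS1, components of the eisosome core, were 0.59 and 0.67 higher (adjusted p = 0.327 and 0.368). Of 16 cell wall proteins 3 rose (18.8%, beside 2.07% of all genes): YGP1 (2.64 ± 0.33, adjusted p = 0.00803), CWP1 (1.77 ± 0.33, adjusted p = 0.0300) and SPI1 (1.66 ± 0.29, adjusted p = 0.0242), all 3 known to respond to stress or slow growth. PIR3 was 1.49 ± 0.37 higher (adjusted p = 0.0796, 0.0449 with the block), with 9.53 and 10.41 in Sample D. Of 27 enzymes of wall glucan and chitin 2 rose, GSC2 and GAS2 (7.41%).

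GAS2, a glucan-elongating enzyme known chiefly from spore walls, had similar levels in Samples B and C. It read 10.22 and 10.35 in Sample B and 10.16 and 10.41 in Sample C, against 8.03, 8.56 and 9.0 without KCl (1.71 ± 0.21, adjusted p = 0.00803). Samples B and C exceeded the mean without KCl by the same 1.71, and the KCl contrast took 98.9% of its variation between the 5 points. The related GAS4 was not above background on any array without KCl. Among 13 sporulation markers SPS100, a spore wall gene, was the 1 that rose (9.29, 11.83, 8.88 and 8.73 in KCl against 6.22, 6.55 and 7.09 without, 3.08 ± 0.45, adjusted p = 0.00904). The meiotic genes SPO11 and SPO13 read 5.71 to 5.87 and 5.66 to 5.77 on the other KCl arrays but 8.04 and 7.03 on Sample B replicate 2.

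In the list of hexose transporters, their sensors and regulators, HXT5 and HXT1, a low-affinity hexose transporter known to respond to salt (0.87 ± 0.16, adjusted p = 0.0298), were the 2 of 20 genes that rose (beside 2.07% of all genes). HXT1 read 13.40, 13.79, 13.31 and 13.53 in KCl against 12.18 to 12.95 without, so that the groups did not overlap although the change was small. HXT7, which cannot be told apart from HXT6 on this array, was 1.54 ± 0.49 higher (adjusted p = 0.152) with 11.90 and 12.46 in Sample D. HXK1 was the 1 of 24 glycolytic and fermentative genes that rose (4.17%, near the 2.07% of all genes), and the median of that list was 0.01. GLK1, glucokinase, was 1.29 ± 0.31 higher and ADH2, the ethanol-oxidizing alcohol dehydrogenase, 1.45 ± 0.35 (adjusted p = 0.0659 each, or 0.00694 for GLK1 and 0.0257 for ADH2 with the block).

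In mitochondria, COX5B and INH1, the inhibitor of the ATP synthase, were the 2 of 40 genes of the respiratory chain that rose (INH1 1.59 ± 0.27, adjusted p = 0.0224). That share of 5.00% was near the 2.07% of all genes. Of the 40, 37 lay above 0 (31 after median centring and 35 after quantile normalization), beside 2912 of all 5449 genes. MLS1, the malate synthase of the glyoxylate cycle, was the 1 of 28 citric acid and glyoxylate cycle genes that rose (3.57%, near 2.07%, 1.40 ± 0.24, adjusted p = 0.0224). NDE2, an external NADH dehydrogenase above background on 1 of 6 arrays without KCl, was 1.25 ± 0.30 higher, and MAE1, the malic enzyme, was 0.85 ± 0.20 lower. With the block the adjusted p of NDE2 was 0.0172 (0.0659 without it) and that of MAE1 0.0291 (0.0599 without it). Among 21 peroxisomal and fatty acid oxidation genes 3 rose (14.3%, beside 2.07% of all genes): CRC1, the mitochondrial carnitine carrier (1.85 ± 0.20, adjusted p = 0.00731), POT1, the thiolase (2.09 ± 0.44, adjusted p = 0.0463), and POX1, acyl-CoA oxidase (1.48 ± 0.30, adjusted p = 0.0413). POX1 and POT1 were below background in Sample C replicate 2 (4.95 and 5.15) and overlapped with the arrays without KCl, of which 1 was above background for POX1 and none for POT1. Set against the background level, POT1 was at least 3.05-fold higher in KCl. CRC1 read 8.34, 8.18, 7.36 and 6.74 against at most 6.33.

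The aldehyde dehydrogenases differed among themselves. ALD3 rose, ALD4, the main mitochondrial form, was 1.70 ± 0.37 higher (adjusted p = 0.0504, 0.00342 with the block), and ALD5, a mitochondrial form used in growth on glucose, was 0.83 ± 0.21 lower (adjusted p = 0.0806, 0.0486 with the block). Of 11 aldose and carbonyl reductases all were above 0, beside 2912 of all 5449 genes, with a median of 0.89. GRE2 rose (9.09%, beside 2.07% of all genes), and with the block 7 did (beside 5.40%). Among these were GCY1 (1.34 ± 0.29, adjusted p = 0.0501, 0.0223 with the block) and YJR096W (1.16 ± 0.30, adjusted p = 0.0844, 0.0284 with the block).

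A few protective enzymes rose. Of 29 genes of oxidative defence 3 rose, 10.3% beside 2.07% of all genes (CTT1, TSA2 and GTT1, a glutathione transferase at 1.37 ± 0.21, adjusted p = 0.0123), and PRX1, the mitochondrial peroxiredoxin, was 1.65 ± 0.37 higher (adjusted p = 0.0550, 0.00482 with the block). Of 29 heat shock proteins and chaperones 2 rose (6.90%), HSP26 and HSP31 (1.77 ± 0.25, adjusted p = 0.00864), and the median of the list was 0.00. SSA4, the inducible cytosolic HSP70, read 13.43 in Sample B replicate 2 but 8.82, 8.58 and 9.08 on the other KCl arrays, against 7.64 to 9.21 without KCl (adjusted p = 0.343). HSP30, a plasma membrane protein, was 1.57 ± 0.67 lower (adjusted p = 0.271), with a range of 7.03 to 11.14 in KCl. None of 37 proteasome genes or 14 folding genes of the endoplasmic reticulum passed with either test.

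Of 40 autophagy and vacuolar protease genes 5 rose (12.5%, beside 2.07% of all genes) and 14 did with the block (beside 5.40%). They were PAI3, the inhibitor of the vacuolar protease Pep4 (2.36 ± 0.43, adjusted p = 0.0298), ATG39, a receptor for autophagy of the nuclear envelope (2.06 ± 0.35, adjusted p = 0.0193), PBI2, the inhibitor of protease B (1.44 ± 0.20, adjusted p = 0.00864), ATG33 (1.00 ± 0.16, adjusted p = 0.0145) and ATG15, a vacuolar lipase (0.69 ± 0.14, adjusted p = 0.0447). Thus 2 of the 5 were protease inhibitors. APE1, vacuolar aminopeptidase I, was 1.48 ± 0.47 higher (adjusted p = 0.150, 0.00847 with the block). ATG39 was above background on 3 of 6 arrays without KCl, and so was SPG4. Of 6 genes named for stationary phase 3 rose: SPG4 (2.96 ± 0.55, adjusted p = 0.0313), SPG1 (1.19 ± 0.24, adjusted p = 0.0438) and SPG5 (0.81 ± 0.15, adjusted p = 0.0346).

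**Figure D5:**
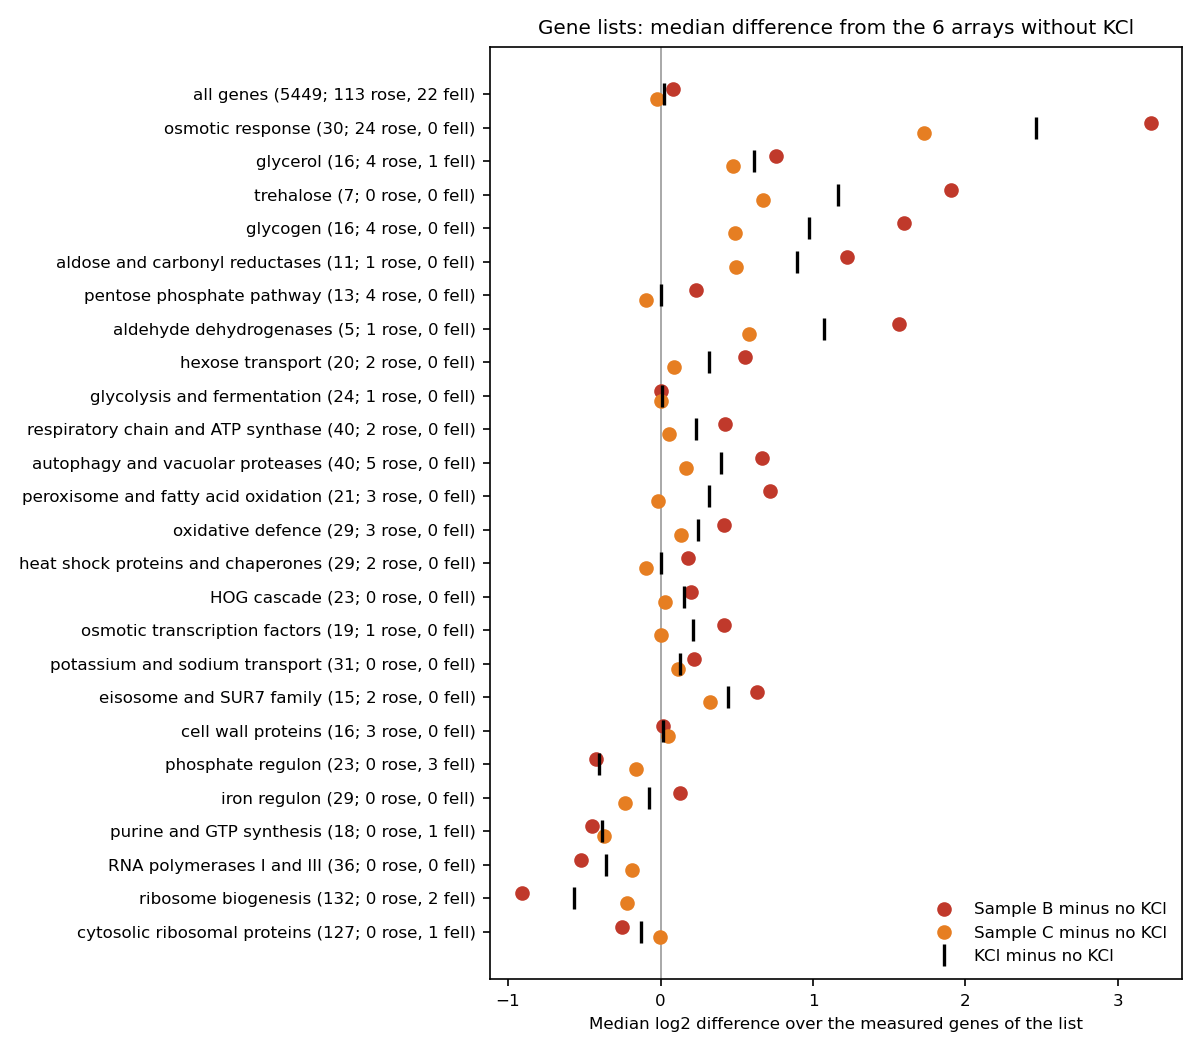
Median log2 difference from the 6 arrays without KCl over the genes of each list, for Sample B (red), Sample C (orange) and the KCl contrast (black bar), with the number of genes measured and called in brackets. The osmotic response list lies at 3.21 for Sample B and 1.73 for Sample C, ribosome biogenesis at -0.91 and -0.22; the points of a list share the arrays without KCl.

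Within the phosphate regulon, 3 of 23 genes fell (13.0%, beside 0.404% of all genes) and none rose. The list was chosen with these values known. SPL2, which restrains low-affinity phosphate uptake, was 1.36 ± 0.35 lower and passed with the block only (adjusted p = 0.0865, 0.0487 with the block). Relative to the mean without KCl, PHO5 stood at -1.72 in Sample B and -2.31 in Sample C, and PHM6 at -1.69 in Sample B and -2.12 in Sample C. PHO11 stood at -2.20 in Sample B and -1.38 in Sample C.

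In the iron regulon none of 29 genes passed with either test, and their median was -0.08. FRE1, the main ferric reductase, read 11.12, 10.20, 11.06 and 11.66 in KCl, against 9.79 in Sample A replicate 1 and 11.95 to 12.87 on the other arrays without KCl (adjusted p = 0.320). FRE3, ENB1 and ARN2, used in siderophore uptake, were 0.88, 0.87 and 0.61 lower (adjusted p = 0.289, 0.371 and 0.648).

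Of 18 oxygen-regulated genes COX5B rose and AAC3 fell (11.1%, beside 2.48% of all genes). CYC7, the minor cytochrome c isoform, was 1.66 ± 0.41 higher (adjusted p = 0.0738, 0.00286 with the block), and ANB1, the translation factor isoform of low oxygen, was 1.14 ± 0.29 lower (adjusted p = 0.0852, 0.0124 with the block). TIR1, a cold and low-oxygen mannoprotein, was 1.49 ± 0.46 lower (adjusted p = 0.138, 0.0161 with the block). Sample A had the highest mean for both (12.06 and 11.05 for ANB1, 13.73 and 11.56 for TIR1). In purine and GTP synthesis IMD2 was the 1 of 18 genes that fell (5.56%, beside 0.404% of all genes). HPT1, which salvages hypoxanthine and guanine, was 0.75 ± 0.19 lower (adjusted p = 0.0852, 0.0191 with the block), AAH1, adenine deaminase, was 1.34 ± 0.52 lower (adjusted p = 0.235), and IMD4 was 0.69 ± 0.26 lower (adjusted p = 0.227).

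Genes of ribosome production lay lower in KCl by small amounts. All 132 measured ribosome biogenesis genes had a difference below 0, beside 2537 of all 5449 genes, with a median of -0.57. All 132 stayed below 0 after median centring (median -0.62) and quantile normalization (median -0.61). Only LTV1, a factor of small subunit export (fell by 0.86 ± 0.17, adjusted p = 0.0437), and MPP10, of the processome that makes 18S rRNA (fell by 0.80 ± 0.16, adjusted p = 0.0438), passed without the block, 1.52% of the list beside 0.404% lower of all genes. With the block 30 of the 132 fell, beside 1.98% of all genes. No member was called without the Sample B arrays, with or without the block. The list was mostly lower early in salt: its median was -0.91 for Sample B and -0.22 for Sample C. KRR1, of the small subunit, read 10.29, 9.40, 10.80 and 10.74 in KCl against 10.95, 11.36 and 12.14 without, with no overlap (1.09 ± 0.25 lower, adjusted p = 0.0634, 0.0132 with the block). FAF1 and NOP7 were 0.97 and 0.96 lower (adjusted p = 0.0501 each, or 0.0245 for FAF1 and 0.0189 for NOP7 with the block).

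The genes of the ribosome itself had smaller differences. Of 127 cytosolic ribosomal protein genes 126 were below 0 (119 after quantile normalization), beside 2537 of all 5449 genes, with a median of -0.13. RPS14B was the 1 that fell (0.787%, near the 0.404% of all genes). It read 12.19, 11.54, 12.37 and 12.56 in KCl against 12.69, 12.98 and 13.32 without (adjusted p = 0.0442). Many ribosomal protein genes exist as near-identical pairs whose probe sets can share signal. The median level of the list was high on every array, at 13.56 to 14.17, and whether that limited the differences was not tested. For 36 subunits and factors of RNA polymerases I and III the median was -0.36 and none passed. With the block 3 fell, beside 1.98% of all genes. Among them were RPA43 (0.75 ± 0.17 lower, adjusted p = 0.0571, 0.0189 with the block) and RPC34 (0.72 ± 0.17 lower, adjusted p = 0.0659, 0.0324 with the block).

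None of 15 cyclins and their inhibitors, 10 histone genes or 23 subunits of the SAGA and ADA complexes passed with either test, counts near what the 2.48% of all genes called would give in lists of this length. GCN5, the acetyltransferase of SAGA, read 7.64, 8.82, 8.23 and 8.89 in KCl, against 7.82, 8.38 and 8.71 (lowest, median, highest) without, and differed by 0.10 ± 0.27 (adjusted p = 0.900), with the opposite sign (-0.06) after quantile normalization. HFI1 and UBP8, other SAGA subunits, were 0.45 and 0.43 lower (adjusted p = 0.347 and 0.239). None of 11 genes of daughter cell separation passed, and SFG1, a transcription factor of that process, was 1.13 ± 0.28 lower (adjusted p = 0.0796, 0.0315 with the block). None of 21 pheromone response genes passed, and SST2, which dampens the pheromone signal, was 0.77 ± 0.18 lower (adjusted p = 0.0608, 0.0360 with the block).

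The KCl contrast took the largest part of the expression differences between sampling points. Summed over all genes, it accounted for 51.7% of the variation between the 5 group means, against 24.3% for Sample C against Sample B, 16.2% for Sample D against Samples A and E, and 7.78% for Sample E against Sample A. Computed within a replicate, the share was 57.4% in replicate 1 and 42.1% in replicate 2. For the typical gene it was lower, with a median share of 31.0%. Among the called genes the contrast took a median of 77.1%, a value the call itself favours. ARO10 and ARO9, the decarboxylase and the aminotransferase that turn aromatic amino acids into fusel alcohols, were picked out with their values in view, with shares of 96.0% and 93.3%. ARO10 read 9.85, 11.54, 9.87 and 10.37 in KCl and 6.85 to 8.12 without (3.00 ± 0.35, adjusted p = 0.00761), and ARO9 read 11.81, 13.30, 11.55 and 11.73 in KCl and 9.01 to 9.89 without (2.54 ± 0.29, adjusted p = 0.00731). RIB4, the lumazine synthase of riboflavin synthesis, picked out in the same way, reached 94.9% with a small rise of 0.79 ± 0.15 (adjusted p = 0.0346).

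Within the KCl group, the early point lay farther from the arrays without salt. Among the 113 rises Sample B exceeded Sample C in 110, with median differences from the mean without KCl of 2.52 for Sample B and 1.24 for Sample C. Among the 22 falls Sample B was farther in 15, with medians of -1.33 for Sample B and -0.89 for Sample C. GAS2 stood at the same distance in both. COS12 and RIB4 were the 2 rises, and PHO5, PHM6, YHR214C-E, YMR317W, YNL040W, YOL014W and GPD2 the 7 falls, in which Sample C was farther. YNL040W, an uncharacterised gene picked out with its values in view, read 10.30 and 10.45 in Sample B and 9.17 and 8.97 in Sample C, with 9.80 to 11.09 without KCl. Tested directly, however, no gene passed between Sample C and Sample B (0%, 561 at an unadjusted p under 0.05), and 1 did with the replicate block (0.0184%). That gene was BSC1, which read 7.72 and 7.09 in Sample C and 5.55 and 5.12 in Sample B, with 4.42 to 7.01 without KCl (2.08 higher in Sample C, adjusted p = 0.0492 with the block and 0.356 without). The count changed strongly with either Sample B array left out. Such a fit sets Sample C against a single array and takes no spread from Sample B. Its count is therefore not read as a difference between these points.

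Within the group without KCl, Sample D lay above Samples A and E for most genes that rose. Of the 113 rises 86 (76.1%) were higher in Sample D than in the mean of Samples A and E, against 17.7% of all genes, and their median difference was 0.46 against -0.19 over all genes. Of the 22 falls 4 (18.2%) were higher in Sample D, a share near that of all genes. No gene passed between Sample D and Samples A and E with limma (0%, 278 at an unadjusted p under 0.05), nor with the block. Without Sample B 28 passed, and with the block 123 did without Sample B and 19 without Sample C. Sample E lay above Sample A for 90.3% of the rises, but also for 77.8% of all genes. The median difference was 0.38 for the rises, against 0.13 over all genes.

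A separate count took the genes whose 4 KCl arrays all lay on 1 side of all 6 others. There were 158 above and 135 below, 293 in all (2.90%, 2.48% and 5.38% of 5449). Of the 135 genes called by limma 98 were of this kind, 80 of the 113 rises and 18 of the 22 falls. Of the 33 rises that overlapped, 27 did so with a Sample D array, and in 27 the lowest KCl array was Sample C replicate 2. After median centring the count was 521 and after quantile normalization 616. By the study's 1.8-fold cut-off on group means, 260 genes were higher and 67 lower (4.77% and 1.23%).

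The called genes differed from the rest in level. Without KCl the 113 rises had a median level of 7.98 and the 22 falls of 10.5, against 9.76 over all genes. In KCl the medians were 10.41 for the rises, 9.28 for the falls and 9.82 over all genes. Both levels are sides of the contrast that called the genes, so the call itself favours these differences. The gene lengths in the RefSeq table had medians of 1143 bases for the rises, 1353 for the falls and 1236 for all genes. Of the 135 called genes 115 were above background on all 10 arrays, 96 of the rises and 19 of the falls.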

How the data were processed

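The deposited values are log2 expression values, which the authors obtained with the RMA algorithm (background correction, normalization and probe summary) of the Expression Console program from Affymetrix. The program version, and whether 1 run covered all arrays, are not given in the sources used here. Of 10928 probe sets, 5498 matched *S. cerevisiae* genes by gene identifier. For 47 genes with several probe sets the one with the highest mean was kept, leaving 5449 genes, and 1746 probe sets named for other species gave the background level. The array names no genome build, so no coordinates are given.

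Groups were compared with limma 3.58.1 in R 4.3.3, with 1 coefficient per sampling point over all 10 arrays. The contrast was the mean of Samples B and C minus the mean of Samples A, D and E, and errors are its SEs. P-values are two-sided and adjusted over all 5449 genes by the method of Benjamini and Hochberg. Each sampling point had 2 arrays, which limits the precision of every value, and 1 spread per gene was assumed for all points, although Sample B varied most. The study's methods say that the replicate cultures were grown at different times. The replicate number was taken to pair arrays across sampling points. Deviations from the group means of same-numbered arrays correlated at 0.22 to 0.52 (median 0.43, 10 pairs of groups). The fit with the replicate number as a block is given where it changes a call. In 1 simulated data set with 200 of 5449 genes changed, 60 of the 100 changes of log2 1 and 92 of the 100 changes of log2 2 were recovered, with 9 false calls. That data set had independent arrays, 1 spread per gene at all points and the same change in Samples B and C. The measured arrays differ from it in each of these, so the recovery here may be different.

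The groups, gene lists, paralogue pairs and tests were chosen with earlier results of these data known. By rule, the text names the 12 rises and 12 falls of largest size that passed and went the same way in both replicates, the 4 members of each list with the largest difference and its called members, the genes called in the other 2 contrasts, GCN5 and markers of strain, mating type and sporulation. ARO10, ARO9, RIB4, COS12, YNL040W, DCS2 and the uncalled paralogue partners fall outside this rule. It was not kept for every list: no member is named for the proteasome, endoplasmic reticulum folding, cyclin and histone lists. Lists of ergosterol, methionine and cell wall integrity genes were counted but are not described. Alternatives were the block, 2 scalings, a filter on dim genes, all probe sets, another variance moderation, the groups pooled, and arrays or samples left out. The block combined with leaving out a sample was added after seeing the data.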

Additional observations from a re-analysis of the deposited data

Results flagged for a closer look

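On 18 occasions among 298 groups of 4 or 6 arrays of named genes, 1 array stood far from the rest of its group. Chance alone flags about 1 in 20 groups. The number given for each is the gap to the nearest array as a share of the range of the group. Of the 18, 13 were among the KCl arrays and 11 of these concerned Sample B replicate 2. It was the highest KCl array for GRE1 (0.90, 12.98 against a next value of 9.97), TKL2 (0.858), GPP2 (0.886), STE11, the kinase kinase kinase of the pheromone and salt pathways (0.968), LSP1 (0.865), MLS1 (0.941), ALD2 (0.86), SSA4 (0.898, 13.43 against 9.08) and ARO9 (0.853). It was the lowest for AAH1 (0.835, 9.11 against 11.78) and for RPC31, a subunit of RNA polymerase III (0.92). Sample B replicate 1 was the lowest KCl array for UTP9, a small subunit processome gene (0.853), and for FUS3, the kinase of the pheromone response (0.946). Among the arrays without KCl, Sample A replicate 1 was the highest for IMD2 (0.87) and FUS3 (0.651) and the lowest for CRH1, a chitin transglycosylase (0.669), and FRE1 (0.70), and Sample E replicate 2 was the highest for FRE3 (0.70, 10.25 against 8.51). The causes were not tested. BSC1 was flagged because its level differed between the KCl points, by 2.08 (Sample C minus Sample B), with the replicate block only (limma adjusted p = 0.0492).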

How the results depend on the processing

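The count of 135 genes called between KCl and no KCl was 402 with the replicate block, 271 after median centring, 335 after quantile normalization and 81 with the points pooled into 2 groups. It was 83 without Sample B, 0 without Sample A (663 at an unadjusted p under 0.05, limma) and 62 without Sample E. With the block it was 249 without Sample B, 496 without Sample C and 229 without Sample D. A fit with an array left out takes no spread from the sampling point that keeps a single array. With 1 array left out it ran from 14 (Sample C replicate 1) to 1372 (Sample B replicate 1). The count between Sample C and Sample B was 1 with the block and ran from 0 to 1333 with an array left out, and that between Sample D and Samples A and E ran from 0 to 28 with an array left out, was 28 without Sample B, and with the block was 123 without Sample B and 19 without Sample C. The count of non-overlapping genes was 521 after centring, 616 after quantile normalization, 588 without Sample B, 1064 without Sample C, 580 without Sample D and 544 without Sample E, and ran from 299 to 491 with an array left out. Fewer arrays make a lack of overlap easier to reach, and the other causes were not tested. Of 77 named called genes none turned direction under any alternative, and all 77 kept their call with the block, which brought 38 of the 71 others past the threshold and changed no other call. Of the genes not called, ARN2 ran from -1.25 to 0.037 with an array left out (0.037 without Sample B replicate 1). GCN5 turned to -0.057 after quantile normalization, -0.067 without Sample C and -0.012 without Sample D, each with and without the block for the samples, and ran from -0.20 to 0.395 with an array left out.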
